A study of Mus musculus with 2 samples.

Results

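The globin and erythroid genes described here are 5 globins (Hba-x, Hbb-bh1, Hbb-y, Hba-a1 and Hbb-b1) and 4 further genes of the red cell lineage (Alas2, Slc4a1, Klf1 and Gata1). They were taken by gene name from the array, where these 9 of 30011 genes have 10 of the 39429 probes, 2 for Hbb-y and 1 for each other gene. RNA came from ureters of Tbx18(cre/+);Rbpj(fl/fl) embryos (Rbpj-cKO) and of control embryos labelled Rbpj(fl/?), all at E14.5 and on the NMRI strain. The Cre recombinase is expressed from the Tbx18 locus, which in the developing ureter is active in the mesenchyme, and the second Rbpj allele of the controls is not given. A male pair (replicate 1, Rbpj-cKO in red) and a female pair (replicate 2, Rbpj-cKO in green) were each hybridised to 1 array, so sex, dye orientation, array and RNA sample cannot be told apart between the pairs. How many embryos gave each RNA is not stated in the sources used here. Any p-value rests only on the spread between these 2 arrays, that of the probe moderated by that of all probes.

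Globins are the protein chains of haemoglobin, the oxygen carrier of red blood cells. In the mouse, the first, primitive red cells arise in the yolk sac and carry embryonic chains, and the later, definitive red cells of the fetal liver carry adult-type chains, so that around mid-gestation blood holds both kinds of cell. In a dissected tissue, globin transcripts come mainly from the blood it holds. Primitive red cells of the mouse enter the circulation with a nucleus and with abundant globin RNA. In RNA of a whole tissue, fewer cells of a type and less RNA per cell cannot be told apart.

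All 10 probes were well above background in each of their 4 spots in every channel. In the male pair 9 of 10 probes were higher and 1, that of Klf1, was lower in Rbpj-cKO than in control. In the female pair 10 of 10 were lower in Rbpj-cKO. Thus 9 of 10 were above 0 on replicate 1 and below 0 on replicate 2, against 34.6% of all 26980 probes past the filter. Opposite signs were common in either sense. Of 20495 genes, each read from its brightest probe, 7021 had this direction and 7158 the reverse. An opposite difference of at least 1.5-fold on each array was found for 4 of 10 probes, those of Hba-x, Hba-a1, Hbb-b1 and the brighter of Hbb-y, against 0.526% of all probes. The reverse pattern, lower in the male and higher in the female pair by as much, was found for none of the 10 and for 0.0778% of all probes. None of the 10 reached 1.5-fold in 1 direction on both arrays, against 0.159% of all probes, of which 0.104% were higher and 0.0556% lower in Rbpj-cKO. None passed limma's moderated test after Benjamini-Hochberg adjustment over all probes (adjusted p = 1 for each), and neither did any other probe (0.0% called). Without adjustment 1 of 10, Klf1, had p under 0.05, against 1.73% of all probes.

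Across all probes the log2 ratios of Rbpj-cKO over control on the 2 arrays were correlated at r = -0.365 (Spearman's rho = -0.474, n = 26980 probes, which share their RNAs and are not independent replicates). The labels state the dye of each genotype on each array, and that direction was kept. Rbpj had a lower signal in Rbpj-cKO than in control in either pair, with log2 ratios of -1.13 and -0.63 for the brighter of its probes and -0.48 and -0.37 for the other. The position of these probes relative to the deleted part is not given here. Between 67.7% and 70.3% of probes were well above background in at least 2 spots of a channel. The SD of the log2 ratios over all probes was 0.193 in the male and 0.244 in the female pair.

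**Figure D1:**
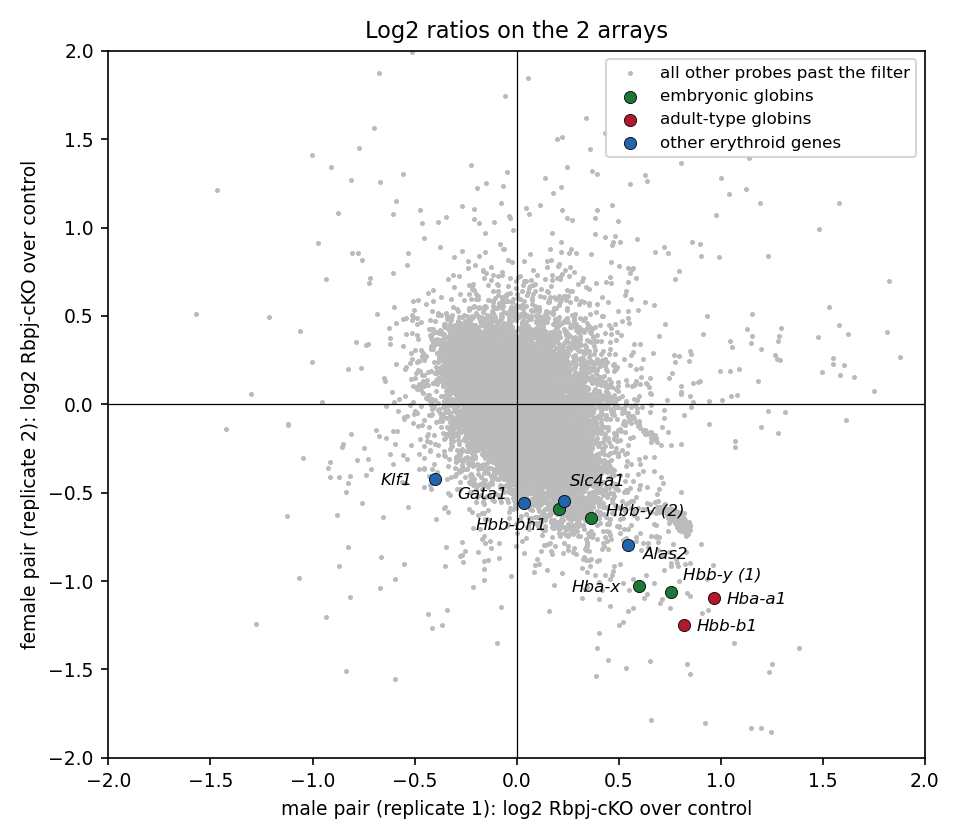
Log2 ratio of Rbpj-cKO over control in the male pair (horizontal) and in the female pair (vertical) for each of the 26980 probes past the filter (grey), with the 10 globin and erythroid probes coloured by kind; 13 probes lie outside the axes. The adult-type globins lie farthest to the lower right, at 0.97 and -1.09 for Hba-a1 and 0.82 and -1.25 for Hbb-b1, and Klf1 alone among the coloured probes lies left of 0, at -0.40 and -0.42.

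The levels of the embryonic globins were read from 4 probes. The values of the alpha-type genes and of Hbb-y rest on the following 60-base probes, whose mm9 positions are those given per the file headers and which are shown because they name the transcript measured.
Hba-x probe, chr11:32177668-32177727, plus strand: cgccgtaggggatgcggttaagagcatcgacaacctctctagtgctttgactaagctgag
Hba-a1 probe, chr11:32183955-32184014, plus strand: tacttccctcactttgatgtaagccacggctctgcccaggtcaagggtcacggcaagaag
Hbb-y probe, chr7:111000448-111000507, minus strand: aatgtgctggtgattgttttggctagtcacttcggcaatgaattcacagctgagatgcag
These stretches lie at separate places in the globin clusters of chromosomes 11 and 7, and the other probes of the family are given by position only. Whether the array's probes tell apart all near-identical globin copies was not tested.

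Hba-x encodes zeta globin, the embryonic alpha-type chain. Its level, as log2 intensity after background correction and scaling of the channels, was 16.06 in male Rbpj-cKO, 15.46 in male control, 14.54 in female Rbpj-cKO and 15.57 in female control RNA. The female Rbpj-cKO RNA was the lowest and the male Rbpj-cKO RNA the highest, with both controls close together between them, so the genotypes overlapped. The log2 ratio of Rbpj-cKO over control was 0.60 in the male pair, or 1.51-fold higher, and -1.03 in the female pair, or 2.04-fold lower. The mean was -0.21 ± 1.15 (SD, n = 2 arrays), smaller than the spread between the arrays.

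Hbb-y encodes epsilon-y globin, an embryonic beta-type chain, and was measured by 2 probes. The brighter (chr7:111000448-111000507, minus strand) had log2 levels of 17.85 in male Rbpj-cKO, 17.09 in male control, 16.80 in female Rbpj-cKO and 17.87 in female control RNA. The dimmer (chr7:111000268-111000327, minus strand) had 17.31 in male Rbpj-cKO, 16.95 in male control, 16.68 in female Rbpj-cKO and 17.33 in female control RNA. Both probes put the male Rbpj-cKO and the female control RNA high and the other RNAs low. Their log2 ratios were 0.76 and -1.06 for the brighter probe and 0.37 and -0.65 for the dimmer, in the male and the female pair, with means of -0.15 ± 1.29 and -0.14 ± 0.71 (SD, n = 2 arrays). The probes thus gave the same directions but not the same sizes, and the ratio of the brighter minus that of the dimmer was 0.39 on the male and -0.42 on the female array.

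Hbb-bh1 encodes beta-h1 globin, the other embryonic beta-type chain (probe at chr7:110990209-110990268, minus strand). Its log2 level was 15.26 in male Rbpj-cKO, 15.05 in male control, 14.35 in female Rbpj-cKO and 14.95 in female control RNA. The female Rbpj-cKO RNA again stood below the other 3. The log2 ratio was 0.21 in the male and -0.59 in the female pair, with a mean of -0.19 ± 0.57 (SD, n = 2 arrays). These ratios were the least far apart among Hba-x, Hbb-bh1, Hbb-y, Hba-a1 and Hbb-b1.

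Hba-a1 encodes the adult alpha chain (probe at chr11:32183955-32184014, plus strand, shown above). It had log2 levels of 18.001 in male Rbpj-cKO, 17.03 in male control, 16.91 in female Rbpj-cKO and 18.001 in female control RNA. The male Rbpj-cKO and female control RNAs, both in red, were at the same level. The male control RNA was 0.12 above the female Rbpj-cKO RNA, both in green. The log2 ratio was 0.97 in the male pair and -1.09 in the female pair, with a mean of -0.06 ± 1.46 (SD, n = 2 arrays), the closest to 0 among the 10 probes.

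Hbb-b1 is the array's name for an adult beta chain gene (probe at chr7:110976379-110976438, minus strand). Mice carry different haplotypes of the adult beta genes, and which of these the NMRI embryos carried is not given here. The first 46 bases of the probe match the RefSeq start of Hbb-bs at 46 of 46 positions, and that of Hbb-bt at 38 of 45. The log2 level was 15.17 in male Rbpj-cKO, 14.35 in male control, 12.94 in female Rbpj-cKO and 14.19 in female control RNA. The female Rbpj-cKO RNA was far below the other 3, and the controls of both sexes were near each other. The log2 ratio was 0.82 in the male and -1.25 in the female pair, a 2.37-fold lower level in female Rbpj-cKO and the largest female difference among the 10 probes, and the mean was -0.21 ± 1.46 (SD, n = 2 arrays).

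Brightness went with part of this pattern. The 181 other probes within 0.5 log2 units of the mean intensity of Hba-a1 had median log2 ratios of 0.16 in the male and -0.12 in the female pair, and 79.0% of them were above 0 in the male and below 0 in the female pair. For the brighter probe of Hbb-y these values were 0.17, -0.12 and 77.2% over 246 probes, and for the dimmer one 0.11, -0.09 and 68.7% over 485 probes. Around the other globins, Hba-x, Hbb-bh1 and Hbb-b1, the medians of equally bright probes lay from -0.04 to -0.03 in the male and from 0.03 to 0.04 in the female pair, and 28.8% to 30.9% of those probes had the opposite directions. The ratios of Hba-a1 and of both Hbb-y probes were thus farther from 0 than the medians of equally bright probes. In the male pair 0.0% of those probes were at least as high as Hba-a1, 0.407% as the brighter and 11.3% as the dimmer Hbb-y probe. In the female pair 0.0%, 0.0% and 0.412% were at least as low. For Hba-x, Hbb-bh1 and Hbb-b1 these shares were 1.56%, 9.15% and 0.54% in the male pair, and 0.0%, 2.0% and 0.06% in the female pair. No spot of these probes was saturated. The highest red signal, of Hba-a1, reached 53.7% of the saturation value on replicate 1 and 52.0% on replicate 2. The part of brightness in the globin ratios was not tested further.

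**Figure D2:**
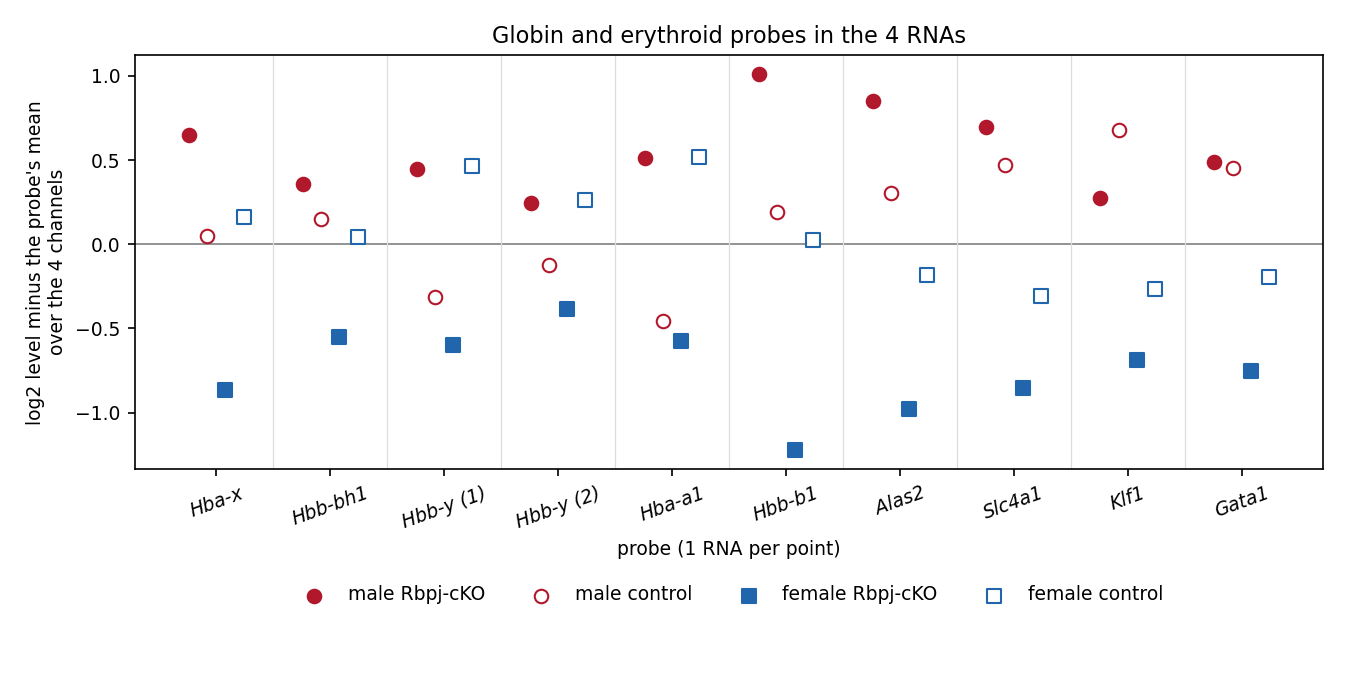
Log2 level of each of the 10 probes in the 4 RNAs, less the probe's mean over the 4 channels, with filled symbols for Rbpj-cKO, open symbols for control, circles for the male and squares for the female pair. The female Rbpj-cKO point is the lowest for 10 of 10 probes, against 28.2% of all probes, and the male Rbpj-cKO point is the highest for 6 of 10, against 23.5%.

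Embryonic and adult-type globins were set against each other within each array. The 3 embryonic genes, with the probes of Hbb-y averaged, had a mean log2 ratio of 0.46 in the male and -0.82 in the female pair, and the 2 adult-type genes 0.90 and -1.17. Embryonic minus adult-type was thus -0.44 in the male and 0.35 in the female pair, with a mean of -0.05 (SD = 0.56, n = 2 arrays). The difference changed sign between the pairs, and its mean was smaller than its spread. It is given as a value and was not tested.

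Pairing the same genes by chain type, with Hbb-b1 as the adult chain of both beta pairs, gave the same change of sign. For the alpha-type chains, Hba-x minus Hba-a1 was -0.37 in the male and 0.07 in the female pair, with a mean of -0.15 ± 0.31 (SD, n = 2). Hbb-y minus Hbb-b1 was -0.26 and 0.39, with a mean of 0.07 ± 0.46, and Hbb-bh1 minus Hbb-b1 was -0.61 and 0.66, with a mean of 0.02 ± 0.90. In each of the 3 pairs the embryonic chain was the lower one in the male pair and the higher one in the female pair. These pairs re-use the values of the group difference. The change of sign did not hold against every other adult-type gene, as given below. The ratios of Hba-a1 and of Hbb-b1 each lay 1.03 from their own mean over the arrays. Those of the embryonic genes lay 0.40 to 0.81 away with the probes of Hbb-y averaged. The brighter Hbb-y probe alone lay 0.91 away. The spread of the other adult-type genes, given below, was smaller than that of Hba-a1 and Hbb-b1.

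The array holds 6 other globin genes of red cells, of which 5 were measured and Hbb-bh2 was not well above background. The other adult-type genes had log2 ratios of 0.79 and -0.90 for Hba-a2, 0.68 and -0.75 for Hbb-b2, and 0.75 and -0.84 for Hbb-bt in the male and the female pair. All were higher in male and lower in female Rbpj-cKO, as Hba-a1 and Hbb-b1 were. Hba-x, at 0.60 and -1.03, was below Hba-a2 in either pair. Hbb-y, at 0.56 and -0.85 over its probes, was below Hbb-b2 and Hbb-bt in either pair. Hbb-bh1, at 0.21 and -0.59, was below both in the male and above both in the female pair. The SD between the arrays was 1.19 for Hba-a2, 1.015 for Hbb-b2 and 1.12 for Hbb-bt. For Hba-a1 and Hbb-b1 it was 1.46, and for Hba-x 1.15. Hbq1a and Hbq1b, which encode theta chains, had smaller ratios of 0.07 and -0.28, and of 0.19 and -0.29. Globins of other cells went another way in the male pair for Mb, the myoglobin of muscle, with -0.16 and -0.996, and for Cygb, cytoglobin, with -0.15 and -0.46. Ngb, neuroglobin, had 0.02 and -0.19.

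**Figure D3:**
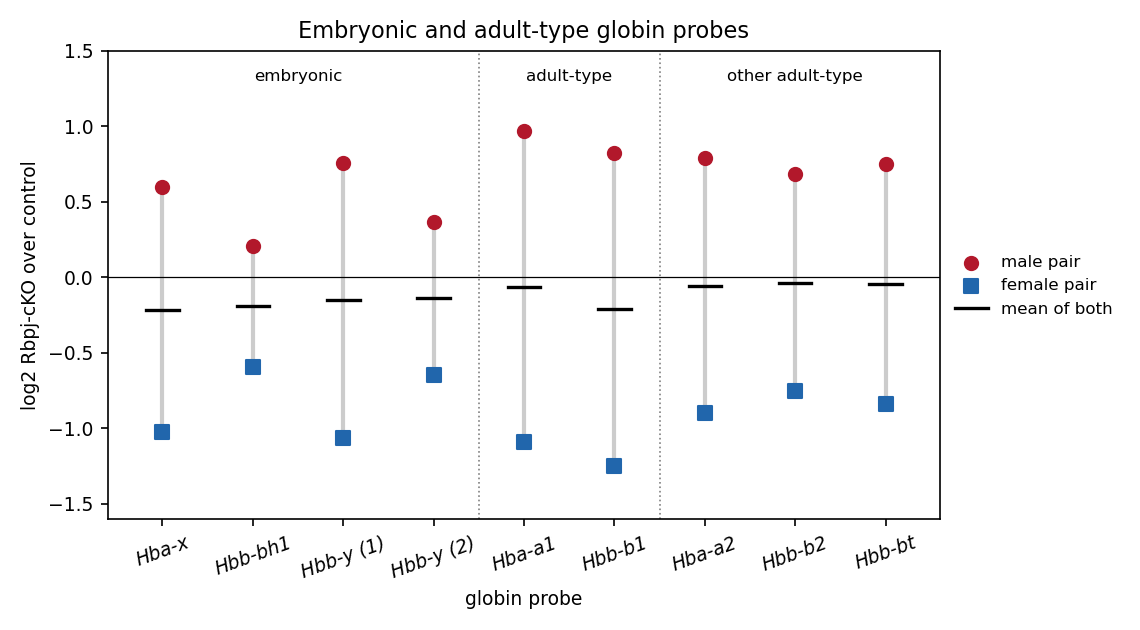
Log2 ratio of Rbpj-cKO over control in the male pair (circles) and in the female pair (squares), with a bar at the mean of both. Shown are the probes of Hba-x, Hbb-bh1, Hbb-y, Hba-a1, Hbb-b1, Hba-a2, Hbb-b2 and Hbb-bt. Among the probes shown, the grey lines are longest for Hba-a1, at 0.97 and -1.09, and Hbb-b1, at 0.82 and -1.25. The shortest is that of Hbb-bh1, at 0.21 and -0.59.

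Alas2 encodes the erythroid form of the enzyme that starts heme synthesis (probe at chrX:147004993-147005052, plus strand). Its log2 level was 14.28 in male Rbpj-cKO, 13.73 in male control, 12.45 in female Rbpj-cKO and 13.25 in female control RNA. Both male RNAs were above both female RNAs. The log2 ratio was 0.55 in the male and -0.79 in the female pair, with a mean of -0.12 ± 0.95 (SD, n = 2 arrays).

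Slc4a1 encodes band 3, the anion exchanger of the red cell membrane (probe at chr11:102210256-102210315, minus strand). The log2 levels were 13.27 in male Rbpj-cKO, 13.04 in male control, 11.72 in female Rbpj-cKO and 12.26 in female control RNA, again with both male RNAs above both female RNAs. The log2 ratio was 0.23 in the male and -0.55 in the female pair, with a mean of -0.16 ± 0.55 (SD, n = 2 arrays).

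Klf1 encodes a zinc finger activator of the adult beta globin gene and of many other red cell genes (probe at chr8:87428881-87428940, plus strand). It had log2 levels of 9.12 in male Rbpj-cKO, 9.52 in male control, 8.15 in female Rbpj-cKO and 8.58 in female control RNA. On each array the Rbpj-cKO RNA was below its control, but the male Rbpj-cKO RNA was above the female control RNA. Log2 ratios of -0.40 in the male and -0.42 in the female pair gave a mean of -0.41 ± 0.015 (SD, n = 2 arrays), a 1.33-fold lower level in Rbpj-cKO. Limma's test gave an unadjusted p = 0.016 and an adjusted p = 1. Klf1 was the single probe of the 10 below 0 on both arrays, where 15.5% of all probes were, and the single one whose mean exceeded the SD between the arrays.

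Gata1 encodes a transcription factor that red cell and megakaryocyte precursors need (probe at chrX:7536392-7536451, minus strand). Its log2 levels were 9.57 in male Rbpj-cKO, 9.53 in male control, 8.32 in female Rbpj-cKO and 8.88 in female control RNA. The male RNAs hardly differed, and both were above the female RNAs. The log2 ratio was 0.04 in the male and -0.56 in the female pair, with a mean of -0.26 ± 0.42 (SD, n = 2 arrays).

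Over both arrays, the mean log2 ratio was below 0 for 10 of 10 probes, where 53.4% of all probes were, and ranged from -0.41 to -0.06. These means were smaller than the SD between the arrays for 9 of 10 probes. The female difference was larger in size than the male one for 10 of 10, and the share of all probes was not computed. Over all probes, too, the ratios were more spread in the female (SD = 0.244) than in the male pair (SD = 0.193). For a probe higher in the male and lower in the female pair, a larger female difference and a mean below 0 are the same statement. At least a 1.5-fold difference was found for 4 of 10 probes upwards in the male pair, against 1.17% of all probes, and for 7 of 10 downwards in the female pair, against 1.89%. The spots of a probe differed by little, with an SD of 0.0084 to 0.071 between the log2 ratios of its spots. That spread covers repeated spots of the same RNAs only and not the spread between RNAs.

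The level of the pairs themselves is a separate comparison, since the mean of Rbpj-cKO and control on an array holds both genotypes and both dyes. The male pair was above the female pair for 10 of 10 probes, where 47.2% of all probes were, and by at least 1.5-fold for 6 of 10, against 0.808% of all probes. These 6 probes were those of Hbb-b1, Alas2, Slc4a1, Klf1, Gata1 and Hba-x, with log2 differences of the male minus the female pair of 1.20, 1.16, 1.17, 0.95, 0.95 and 0.70. The SD of that difference over all probes was 0.167. Hbb-bh1 had 0.51, the probes of Hbb-y 0.13 and 0.12, and Hba-a1 0.06. The adult-type globins thus had the largest and the smallest difference among the 10 probes, 1.20 for Hbb-b1 and 0.06 for Hba-a1. The difference did not follow the split into embryonic and adult-type chains. The probes of Hba-a1 and Hbb-y were also the brightest of the 10, at mean log2 intensities of 17.5, 17.4 and 17.1, and Hbb-b1 was at 14.2. Of the other adult-type genes, Hba-a2 differed by 0.05, Hbb-bt by 0.14 and Hbb-b2 by 0.62. The part of brightness in this difference was not tested. Within a dye, the RNAs set side by side differ in genotype as well as sex. Female Rbpj-cKO was below male control RNA in green by 0.12 to 1.41 over the 10 probes. In red, male Rbpj-cKO less female control RNA ran from -0.02 to 1.03. The shares of all probes with these directions were not computed. Neither the level of the pairs nor the comparison within a dye was tested. Sex, array and RNA sample cannot be told apart in either, nor genotype in the comparison within a dye.

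The promoters of the erythroid genes are known to carry the CACCC box, which Klf1 and related proteins bind, as well as GATA sites, a CCAAT box and a TATA-like element. The 120 bases before the RefSeq start (GRCm38.p6, a build other than that of the probes) are shown for globins of each kind, for Alas2 and for both regulators, so that genes with opposite and with equal signs on the arrays can be set side by side. RefSeq windows were at hand for Hba-x, Hba-a1, Hbb-y, Alas2, Klf1 and Gata1, 6 of the 9 genes, and for Hbb-bs, which the Hbb-b1 probe matches. Capitals mark the CCAAT box, the CACCC box, the GATA-type words AGATAA and TGATAA, and the TATA-like words ATAAA and ATATAA, read on either strand, with overlapping matches run together.
Hba-x promoter, chr11:32276480-32276599, plus strand: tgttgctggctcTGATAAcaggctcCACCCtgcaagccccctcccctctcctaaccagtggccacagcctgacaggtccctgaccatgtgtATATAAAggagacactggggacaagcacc
Hba-a1 promoter, chr11:32283552-32283671, plus strand: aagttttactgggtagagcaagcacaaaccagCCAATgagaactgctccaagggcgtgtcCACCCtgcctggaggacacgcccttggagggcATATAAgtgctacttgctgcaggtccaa
Hbb-y promoter, chr7:103853208-103853327, minus strand: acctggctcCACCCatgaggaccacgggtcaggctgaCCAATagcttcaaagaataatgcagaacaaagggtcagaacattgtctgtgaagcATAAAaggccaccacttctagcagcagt
Hbb-bs promoter, chr7:103827929-103828048, minus strand: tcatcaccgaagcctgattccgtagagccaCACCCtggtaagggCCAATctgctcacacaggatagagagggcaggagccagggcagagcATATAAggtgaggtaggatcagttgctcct
Alas2 promoter, chrX:150547297-150547416, plus strand: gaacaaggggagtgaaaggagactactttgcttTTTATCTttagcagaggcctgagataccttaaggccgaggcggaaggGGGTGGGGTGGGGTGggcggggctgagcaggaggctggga
Klf1 promoter, chr8:84901862-84901981, plus strand: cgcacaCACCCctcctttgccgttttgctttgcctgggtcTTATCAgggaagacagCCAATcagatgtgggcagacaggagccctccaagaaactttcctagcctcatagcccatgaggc
Gata1 promoter, chrX:7967911-7968030, minus strand: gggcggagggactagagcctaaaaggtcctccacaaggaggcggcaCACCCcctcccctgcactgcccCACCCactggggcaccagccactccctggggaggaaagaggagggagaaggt
CACCC was found in all 7 windows, where 31.7% of 32851 RefSeq promoter windows of this length hold it. AGATAA or TGATAA was found in those of Hba-x, Alas2 and Klf1, against a share of 7.63% of promoters. CCAAT was found in those of Hba-a1, Hbb-y, Hbb-bs and Klf1, against 21.3%, and ATAAA or ATATAA in those of all 4 globins and of Alas2, where it overlaps AGATAA, against 21.9%. Klf1 and Hba-x, whose ratios differed in sign in the male pair, both had CACCC and TGATAA. Such matches describe letters and are not evidence of binding.

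Further genes of the red cell lineage were taken from lists of known red cell genes, with 60 genes measured of 63 on the array apart from the members. Of these, 26 were higher in male and lower in female Rbpj-cKO (43.3%, against 34.3% of all 20495 genes), 19 were lower on both arrays (against 14.7% of all genes) and 6 were higher on both (against 16.1%). The remaining 9 were lower in male and higher in female Rbpj-cKO, as were 7158 of all 20495 genes. None passed the adjusted test. The median log2 ratio was 0.02 in the male and -0.19 in the female pair, against 0.00 and 0.00 over all genes. An opposite difference of at least 1.5-fold on each array was found for 3 of the 60, against 0.629% of all genes.

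Among 15 genes of heme synthesis and iron, the largest ratios in each direction belonged to Slc25a37, the mitochondrial iron importer mitoferrin, with 0.62 in the male and -0.79 in the female pair, and to Urod, an enzyme of heme synthesis, with -0.24 and 0.26. In this group 7 genes had the direction of the globins on both arrays (46.7%, against 34.3% of all genes). Another 5 were lower on both (against 14.7%) and 1 was higher on both (against 16.1%). The median ratio was 0.03 in the male and -0.14 in the female pair.

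Of 18 genes of the red cell membrane, 8 had the direction of the globins, 9 were lower on both arrays and 1, Gypc, was higher on both, with 0.06 and 0.03, where the shares over all genes were 34.3%, 14.7% and 16.1%. Ank1, the ankyrin that anchors band 3, had 0.27 and -0.59. Kel, a blood group glycoprotein, had -0.30 and -0.41, values near those of Klf1, and Aqp1, a water channel also made by vessels, had -0.04 and -0.68. Medians were 0.03 in the male and -0.33 in the female pair.

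The 15 further regulators of the lineage had median ratios of 0.00 in the male and -0.04 in the female pair. Of these, 4 had the direction of the globins (26.7%, against 34.3% of all genes) and 4 the reverse. Another 4 were lower on both arrays (against 14.7%) and 3 were higher on both (against 16.1%). Sox6, a repressor of embryonic globin genes, had 0.16 and -0.21. Nfe2, an activator of globin genes, had -0.28 and -0.44, and was lower on both arrays as Klf1 was. Myb, a factor of immature blood cells, had -0.10 and 0.31, and Ldb1, the partner of Gata1 and Tal1 in a DNA-binding complex, had 0.10 and -0.49.

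In the list of 12 other red cell genes, 7 had the direction of the globins (58.3%, against 34.3% of all genes), Hemgn among them. Ahsp, the chaperone of free alpha chains, had 0.61 in the male and -0.83 in the female pair. Hemgn, hemogen, had 0.82 and -0.66, but its probe holds a run of at least 12 alternating G and T bases, as do 107 probes past the filter, for which the median ratios were 0.77 and -0.64. Of the 68 other probes within 0.1 of the ratios of Hemgn, 67 hold such a run, so that its value cannot be told apart from that of the repeat. None of the 10 probes of the globins and erythroid genes holds it, nor does the probe read for any other list gene. Car2, a carbonic anhydrase, had 0.28 and -0.83, while Car1, another, had -0.10 and 0.08 and Xpo7, a nuclear export factor of maturing red cells, had -0.04 and 0.20. The median was 0.27 in the male and -0.33 in the female pair.

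The level of the pairs also differed in the wider lineage. The male pair was at least 1.5-fold above the female pair for 15 of the 60 genes, against 0.917% of all genes. Of these, 8 are genes of the membrane list, in which Kel differed by 1.04 on the log2 scale. Among the others Ahsp differed by 1.22, Slc25a37 by 1.10, Car2 by 1.02 and Nfe2 by 0.71.

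Markers of other cell types were read beside these genes, and their part in the globin ratios was not tested. All 11 measured genes of the hepatocyte list were higher in male and lower in female Rbpj-cKO, against 34.3% of all genes, with medians of 0.46 and -0.82. All 11 were also at least 1.5-fold higher in the male than in the female pair, against 0.917% of all genes, with a median log2 difference of 1.47. Afp, the fetal plasma protein alpha-fetoprotein, had log2 ratios of 0.83 and -1.47, Alb, albumin, 0.45 and -1.44, and Ttr, transthyretin, 3.49 and -0.82. The least far from 0 were Apob, with 0.29 in the male pair, and Fga, with -0.27 in the female pair. Summed processed signals of that list were 17000 in male Rbpj-cKO, 9300 in male control, 2020 in female Rbpj-cKO and 4060 in female control RNA. From high to low, the order was male Rbpj-cKO, male control, female control and female Rbpj-cKO RNA, as for the levels of Hbb-b1, Alas2 and Slc4a1. It was not particular to this list. The sums of the macrophage and leukocyte list (19600, 15200, 13400 and 12700) and of the ureteric mesenchyme list (59800, 59400, 50700 and 47700) had it too. Such sums were not scaled between the arrays, unlike the levels. Of the hepatocyte list's 12 genes only Apoa1 was not past the filter.

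All 17 measured skeletal muscle genes were likewise higher in male and lower in female Rbpj-cKO, against 34.3% of all genes, with medians of 0.60 and -0.94. Myh3, an embryonic myosin heavy chain, had 1.25 and -1.85, and Myh8, a perinatal one, 1.38 and -1.38, while Mylpf, a myosin light chain, had 0.0024 and -0.04. Their summed signals were 29800 in male Rbpj-cKO, 19600 in male control, 16300 in female Rbpj-cKO and 32300 in female control RNA, with the male Rbpj-cKO and the female control RNA high, as for the levels of Hba-a1 and Hbb-y. The median level of this list was 0.10 lower in the male than in the female pair, unlike that of the erythroid genes.

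Other cells of blood and vessels gave other patterns. Of 16 macrophage and leukocyte genes, 9 were higher on both arrays, against 16.1% of all genes, and 7 had the direction of the globins, against 34.3%. The medians were 0.36 and 0.01, with summed signals of 19600 in male Rbpj-cKO, 15200 in male control, 12700 in female Rbpj-cKO and 13400 in female control RNA. Cx3cr1, a receptor of macrophages, had 0.65 and 0.06, Cd14 0.08 and 0.0030, Aif1 0.35 and 0.23, and Itgam 0.34 and -0.26. Of 10 megakaryocyte and platelet genes, 5 had the direction of the globins, against 34.3% of all genes, and 2 were higher on both arrays, against 16.1%. The medians were 0.11 and -0.07, and Itga2b, Gp1ba and Gp5, which mark these cells, were not past the filter. Vwf, which vessels also make, had 0.40 and 0.36, Ppbp -0.60 and 0.02, and Gp9 0.04 and -0.29. The 15 endothelial genes had medians of 0.00 and -0.01, with 6 in the direction of the globins, 5 the other way round, 2 higher and 2 lower on both arrays. Pecam1 had 0.21 and -0.49, Tie1 0.31 and -0.30, and Robo4 -0.22 and 0.30. The summed signals of the endothelial list were 28100 in male Rbpj-cKO, 27000 in male control, 23800 in female Rbpj-cKO and 23400 in female control RNA. Urothelial and ureteric mesenchyme markers, the cells of the labelled tissue, were all past the filter, with summed signals of 39700 to 45700 and of 47700 to 59800 over the 4 RNAs, and the medians of these lists lay between -0.06 and -0.01 on both arrays. At the ends of the urothelial list were Trp63 with 0.25 and -0.31, Cldn4 with -0.53 and -0.58, Upk2 with -0.02 and 0.23, and Krt5 with -0.36 and -1.25. Those of the mesenchymal list were Acta2 with 0.52 and -0.77, Myocd with -0.67 and -1.04, and Tbx2 with 0.17 and 0.52.

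**Figure D4:**
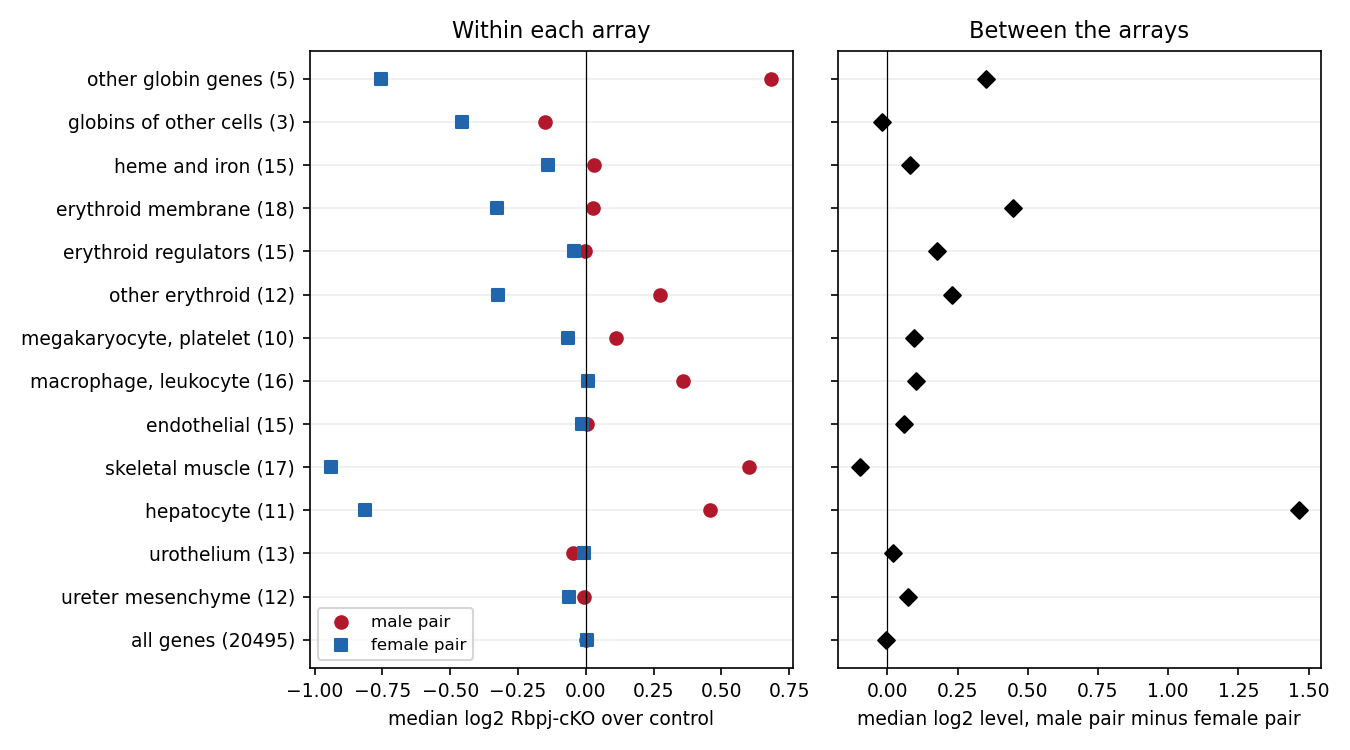
Left, median log2 ratio of Rbpj-cKO over control in the male pair (circles) and in the female pair (squares) for each gene list, with the number of genes measured in parentheses; right, median log2 level of the male minus the female pair. Hepatocyte, skeletal muscle and other globin genes lie far apart on the left, at 0.46 and -0.82, 0.60 and -0.94, and 0.68 and -0.75, and the hepatocyte list stands out on the right, at 1.47.

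The genes whose pair of ratios was nearest to the medians of the 9 erythroid genes, 0.55 in the male and -0.79 in the female pair, were Serpina1d, Acta2, Ahsp, Slc25a37, Gkn2, Ryr1, Fkbp4, Arhgap26, Chrnd and Bsg, at Euclidean distances of 0.037 to 0.103 over the 2 arrays. Ahsp and Slc25a37 are genes of the red cell lineage. Serpina1d encodes a plasma protease inhibitor of the liver, Ryr1 and Chrnd act in skeletal muscle, and Acta2 is the smooth muscle actin. The level of the pairs set some of them apart, since the male minus the female pair was 1.40 for Serpina1d, 1.22 for Ahsp and 1.10 for Slc25a37, but -0.14 for Ryr1, -0.18 for Chrnd and -0.28 for Acta2. For the other nearest genes, which are in none of the lists, it was -0.60 (Gkn2), -0.315 (Arhgap26), -0.13 (Fkbp4) and -0.12 (Bsg).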

How the data were processed

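Each array held an Rbpj-cKO and a control RNA in 2 colours. The authors deposited mean and background median intensity per spot and channel, not normalized, and the scanner software's processed intensity and its log10 ratio of red over green, per the file headers. Flags of 0 or 1 for detection, saturation and outliers were deposited too. Scans were read with Agilent Feature Extraction 10.7.3.1 (source: the submitters' processing notes). The authors' deposited series table holds a score per probe with no value between -1 and 1 and medians of 1. It ran with the processed log2 ratios (r = 0.781 and 0.849 across probes) and was read as a signed fold change, but no source used here gives its method.

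In limma 3.58.1 (R 4.3.3), intensities were background-corrected (normexp, offset 50) and ratios loess-normalized with the 17263 control spots at weight 0. Outlier spots (3.6% and 3.9%) were dropped and the 4 spots of each probe averaged. Ratios of replicate 2 were turned to Rbpj-cKO over control. On both arrays, 2 of a probe's spots had to be well above background in 1 channel or the other, as 26980 were. The mean was tested against 0 with lmFit and eBayes (two-sided, Benjamini-Hochberg over all probes, 1 residual and 6.19 prior degrees of freedom). Channel levels followed loess and Aquantile scaling. List genes were read from their brightest probe. Probe names were updated through a RefSeq table for 28328 probes, while 7701 kept the file's name. The procedure was tested on simulated data. The precision is limited by 2 arrays.

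The members and lists were chosen with earlier results of these data known. Named are all members, the highest and lowest gene of each list on each array, and the 10 genes nearest to the members' medians. Alb, the level differences of list genes, the comparison with equally bright probes and the repeat in the Hemgn probe were chosen after their values were seen. Some list genes are not reported here. Alternatives were processed signals, offset 10, median centring, other filters and moderation, the authors' table, a turned replicate 2 and single arrays.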

Additional observations from a re-analysis of the deposited data

Results flagged for a closer look

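Opposite directions in the male and the female pair, by at least 1.5-fold on each array, singled out 4 probes. The log2 ratio of the male pair less that of the female pair was 1.63 for Hba-x, 1.82 for the brighter probe of Hbb-y, 2.06 for Hba-a1 and 2.07 for Hbb-b1. With 1 array per sex and with the dyes exchanged between the arrays, this difference was not tested, and sex, dye and RNA sample cannot be told apart in it.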

How the results depend on the processing

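The number of probes called at adjusted p under 0.05 by limma was 0 (468 unadjusted), 3 with the processed signals, 8 with offset 10 and 10 with an intensity trend and robust moderation, none of them one of the 10 probes. With replicate 2 turned it was 0 as well, but 5438 of 26980 probes had an unadjusted p under 0.05. The lowest adjusted p of limma's test among the 10 probes was then 0.193. The count of at least 1.5-fold the same way was 43, and 108 with the processed signals or the authors' deposited table, 163 with replicate 2 turned and 403 to 775 on a single array. With replicate 2 turned, 0 probes were at least 1.5-fold opposite and 0 means below 0, and the means were 0.011 for Klf1, 0.39 for Slc4a1, 0.81 for Hba-x, 0.67 for Alas2, 1.03 for Hba-a1, 0.91 and 0.51 for Hbb-y, 0.40 for Hbb-bh1, 0.30 for Gata1 and 1.03 for Hbb-b1. On a single array, 4 to 7 probes reached 1.5-fold in the stated direction and 1 to 10 ratios were below 0. Single ratios ran from -0.55 to 0.23 for Slc4a1, -1.03 to 0.60 for Hba-x, -0.79 to 0.55 for Alas2, -1.09 to 0.97 for Hba-a1, -1.06 to 0.76 and -0.65 to 0.37 for Hbb-y, -0.59 to 0.21 for Hbb-bh1, -0.56 to 0.037 for Gata1 and -1.25 to 0.82 for Hbb-b1. These follow from the arrays' opposite signs. In the settings that kept both arrays and their direction, the mean of each of the 10 probes was below 0. Embryonic minus adult-type was -0.44 to 0.35 on single arrays and -0.39 with replicate 2 turned. The median level difference between the pairs, 0.95 over the 9 genes, was 0.99 without scaling between arrays and 1.36 with processed signals, and loess without these probes changed no call; these alternatives were chosen after seeing the data. No further pairing was fitted, because each ratio already pairs both RNAs within an array.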
